A study of Rattus norvegicus with 7 samples.

Results

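The 7 genes described here encode enzymes of lipid desaturation, measured in the rat meibomian gland, a modified sebaceous gland in the eyelid margin whose secretion, meibum, coats the tears with lipid. They were chosen by symbol. Scd and Scd2 are stearoyl-CoA desaturases, Fads1 and Fads2 front-end fatty acid desaturases with Fads3 as their relative, and Degs1 and Degs2 sphingolipid desaturases. All 7 were found among the 17245 genes present in both deposited tables, and all 7 passed the filter on low counts. RNA sequencing compared 4 control libraries with 3 UVB libraries, to find transcripts of the gland that differ after eyelid irradiation. Every library came from wild-type female Sprague-Dawley rats aged 3 months. In the UVB group the shaved upper eyelids received 300 mJ/cm2 of ultraviolet B over 5 min per day on 5 days, and the controls are listed as untreated; whether control eyelids were shaved is not stated. Glands were dissected from the removed eyelids as whole tissue, so several cell types contribute RNA. Nothing in the labels says that each library is a separate animal, so p-values measure the spread between these libraries.

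Desaturases put double bonds into acyl chains that are already built, using oxygen and electrons passed along by cytochrome b5 and its reductase. Scd and Scd2 are delta-9 desaturases of the endoplasmic reticulum that turn saturated acyl-CoA into the monounsaturated chains used for wax esters, sterol esters and triglycerides. Fads2 and Fads1 are the delta-6 and delta-5 desaturases of polyunsaturated fatty acid synthesis, and Fads3 is their relative in the same gene cluster. Degs1 introduces the double bond that turns dihydroceramide into ceramide, and Degs2 can also hydroxylate dihydroceramide to make phytoceramide, a lipid of the epidermal barrier. Meibum is rich in monounsaturated acyl chains, and their double bonds keep it fluid at eyelid temperature.

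Library totals ran from 20680237 to 28784941 counts. Of the 13709 genes tested, 13.0% had an adjusted p under 0.05 (edgeR's quasi-likelihood test, Benjamini-Hochberg adjustment), 6.30% higher and 6.74% lower after UVB. All 8 listed markers of meibocytes, the lipid-producing cells, were detected. Their summed level was lower after UVB (16830 to 18794 CPM, counts scaled to library size after TMM normalisation) than in controls (19973 to 24694 CPM), and the groups did not overlap. That separation rested on the wax synthase Awat2: without it, a sum added after seeing the data, the ranges were 10871 to 12858 CPM after UVB and 11502 to 15155 CPM in controls. Of the 8, Awat2, Plin2 and Cidea fell and none rose, and 5 did not pass, among them Soat1 (0.10), Pparg (0.22) and Mc5r (0.82) with log2 fold changes above 0. Markers of basal epithelium (4 of 5 tested) summed to 11452 to 12295 CPM after UVB and 8970 to 11192 CPM in controls. Krt14 and Itga6 rose, Krt5 (-0.021) and Tp63 (-0.089) did not pass, and without Krt14 the sums overlapped (4742 to 5225 CPM after UVB, 4311 to 5478 CPM in controls). Endothelial markers (4 of 5 tested) summed to 121.8 to 141.9 CPM after UVB and 82.6 to 101.3 CPM in controls, and Schwann cell markers (6 of 6) to 107.1 to 131.9 CPM against 151.4 to 179.0 CPM. Of these, 3 of 4 endothelial markers rose and 1 of 6 Schwann cell markers fell. The summed markers of cornifying epithelium (6 of 7 tested), white adipocytes (4 of 6), macrophages (6 of 6), fibroblasts (5 of 6) and skeletal muscle (5 of 6) overlapped between groups, but single markers within them changed. The fibroblast genes Lum (log2 fold change 1.95), Dcn (0.95) and Pdgfra (0.91) rose while Col1a1 and Col3a1 did not pass. The macrophage gene Cd163 rose (3.50), the other 5 macrophage markers did not pass, and Krt77 and Sbsn of the cornifying list fell. No adipocyte or muscle marker passed. No listed marker in the tables was at 0 in every library. In bulk tissue, fewer cells of a type and less RNA per cell cannot be told apart.

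The genes lie in clusters. In the RefSeq annotation of rat assembly GRCr8, Scd2, Scd4 and Scd follow one another on chromosome 1, with no other annotated gene between them. Scd4 is a further stearoyl-CoA desaturase gene, kept here as a comparison. Fads3, Fads2 and Fads1 also follow one another on chromosome 1, with 1 numbered gene model between Fads2 and Fads1, while Degs1 (chromosome 13) and Degs2 (chromosome 6) stand alone. Numbered gene models overlap Fads2 and Degs1, and the handling of strand is not given in the sources used here, so reads from either side cannot be told apart there. Upstream sequences are shown for Scd2 and Scd4, which are neighbours with unlike values after UVB, and for Degs2, the member with the largest difference. Each is the 250 bases before the RefSeq transcript start in GRCr8, 5′ to 3′ on the gene's strand. The windows of the other 5 members overlap an annotated gene, in most cases their own, and are not shown. The Scd2 window is chr1:253118127-253118376 (+), the Scd4 window chr1:253152269-253152518 (+) and the Degs2 window chr6:133377678-133377927 (-). Capitals mark the CCAAT box (CCAAT) in Scd2 and the GC box (GGGCGG) in Degs2, read on either strand.
Scd2: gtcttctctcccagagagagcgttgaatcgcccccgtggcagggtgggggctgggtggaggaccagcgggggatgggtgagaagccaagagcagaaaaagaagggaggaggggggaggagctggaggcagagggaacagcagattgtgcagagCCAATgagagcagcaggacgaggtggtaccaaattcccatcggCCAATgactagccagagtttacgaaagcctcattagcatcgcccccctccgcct
Scd4: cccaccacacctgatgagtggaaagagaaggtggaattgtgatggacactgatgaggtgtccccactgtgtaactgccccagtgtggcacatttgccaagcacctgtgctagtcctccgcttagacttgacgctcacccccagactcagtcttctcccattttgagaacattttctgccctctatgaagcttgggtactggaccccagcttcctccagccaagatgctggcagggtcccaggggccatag
Degs2: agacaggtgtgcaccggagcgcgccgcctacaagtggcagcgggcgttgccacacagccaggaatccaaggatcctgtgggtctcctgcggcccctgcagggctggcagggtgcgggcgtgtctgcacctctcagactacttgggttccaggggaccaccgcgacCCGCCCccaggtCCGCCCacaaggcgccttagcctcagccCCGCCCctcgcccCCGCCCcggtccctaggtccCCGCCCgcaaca
These 3 windows differ in the letters searched for. CCAAT, a box bound by the factor NF-Y, occurred 2 times in the Scd2 window and in 34.0% of 33469 windows of the same length. The GC box occurred 5 times in the Degs2 window and in 30.5% of all windows. No match was found in the Scd4 window to these or to the other 4 motifs searched on both strands. Those were TATAAA (in 12.9% of windows), the sterol regulatory element TCACNCCAC (0.974%), the nuclear receptor letters AGGTCA (14.1%) and the AP-1 letters TGANTCA (6.34%). The Scd window, which is not shown, had no match to any of the motifs searched either. Other windows not shown did have matches. The Fads3 window had 2 CCAAT boxes and 3 GC boxes, and the Fads1 window had 1 of each. The Fads2 and Degs1 windows had 1 GC box each, and the Degs1 window also had 1 match to AGGTCA. The printed matches do not overlap one another. G and C made up 60.0% of the Scd2 window, 54.8% of the Scd4 window and 71.2% of the Degs2 window, against a median of 51.2% over all windows.

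None of the 7 desaturase genes passed the test between UVB and control, where 13.0% of all tested genes did. At an unadjusted p under 0.05 there was 1 of 7, Degs2, against 29.5% of all genes. Log2 fold changes were above 0 for 4 members and below 0 for 3, with a median of 0.044, and the median over all tested genes was -0.0058. The groups overlapped for every member in CPM, while 26.6% of all tested genes had groups that did not overlap. DESeq2 called 1 of the 7, Degs2, and 2400 genes in all. It applies a filter of its own, and the share of genes that it called was not computed. Degs2 was also the 1 member called by limma-voom, which called 1803 of the same 13709 genes, where edgeR called 1787, or 13.0%.

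**Figure D1:**
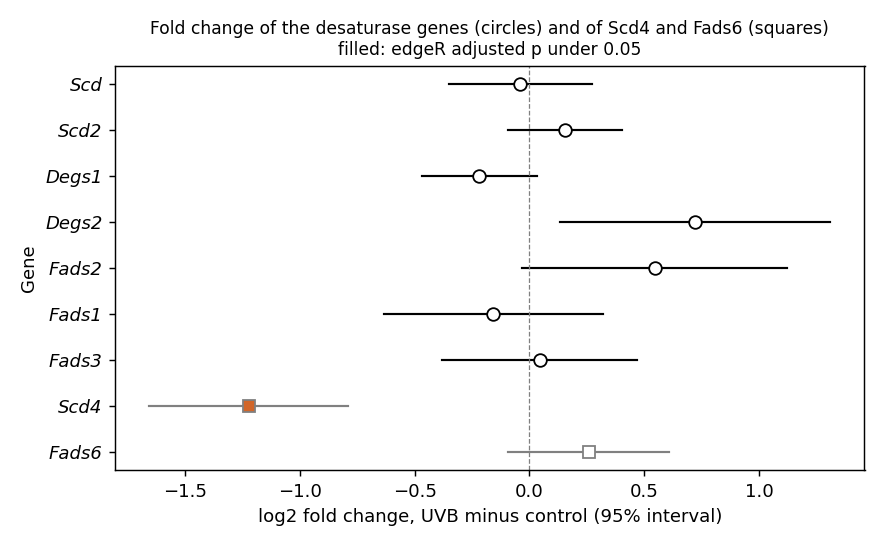
Log2 fold change between UVB and control libraries (x axis) with its 95% interval for each desaturase gene (circles) and for Scd4 and Fads6 (squares), filled where the edgeR adjusted p was under 0.05. The 7 members are open circles, with Degs2 farthest from 0 at 0.72, and Scd4 is the filled square at -1.22.

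Transcript levels of the 7 genes spanned more than 3 orders of magnitude. On the scale of TPM (abundance corrected for transcript length and library size) the mean control level was 27692 for Scd, 518 for Scd2, 232 for Degs1, 46.6 for Degs2, 9.21 for Fads2, 7.995 for Fads1 and 5.08 for Fads3. Among the genes analysed from the deposited tables, Scd ranked first in each of the 7 libraries. Scd2 ranked between 202 and 278, Degs1 between 476 and 844, and Degs2 between 1459 and 3658. The listed genes do not make up the whole TPM total, so ranks that include unlisted genes are not known. The order of the members was the same in 6 of 7 libraries. The exception was control c, where Fads1 (9.64 TPM) stood above Fads2 (9.28 TPM). Whether those 2 genes differ in level was not tested. Scd held 96.35% to 97.47% of the summed TPM of the 7 genes in any library.

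**Figure D2:**
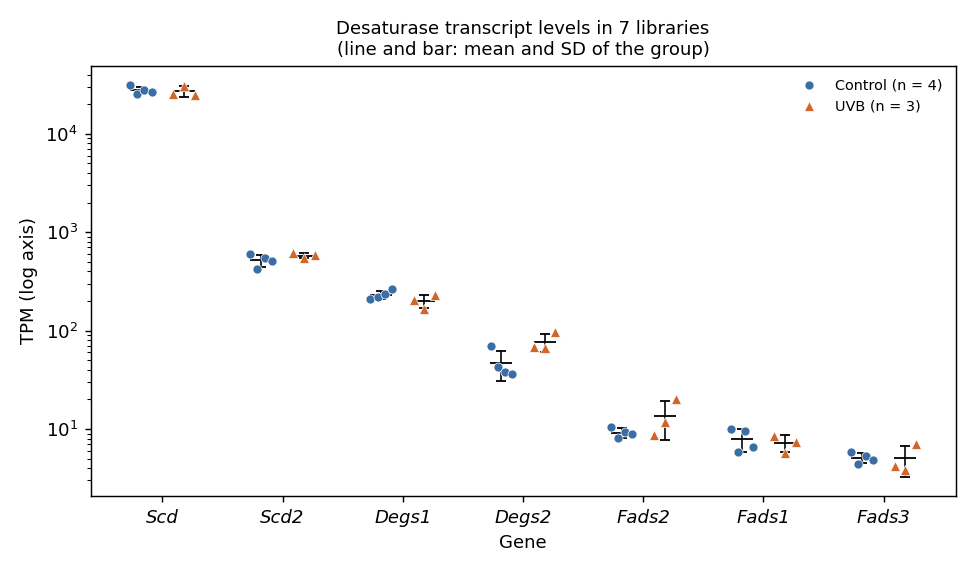
TPM of each desaturase gene on a log axis in 4 control libraries (circles) and 3 UVB libraries (triangles), with the group mean and SD as a line and bar. Scd has a control mean of 27692 TPM and Scd2 of 518 TPM, and Degs2 and Fads2 show the widest offsets between the groups.

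Scd, the gland's dominant delta-9 desaturase, measured 90848, 73338, 77749 and 77060 CPM in control libraries a to d and 71265, 89736 and 71761 CPM in UVB libraries a to c. The highest control and the highest UVB library were nearly level, and 2 of the 3 UVB libraries lay below every control. The difference was -0.040 on the log2 scale (SE 0.14; adjusted p = 0.879 in edgeR), a fold of 0.973 with a 95% interval of 0.785 to 1.21. The sign turned positive without control a (0.031), without UVB a (0.018) and without UVB c (0.014). Counts of Scd were not whole in any library, so the authors' counting split some reads between Scd and another gene or transcript, which leaves its exact level uncertain.

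Scd2, a stearoyl-CoA desaturase known in mice from brain and from developing skin, measured 1821, 1293, 1601 and 1563 CPM in controls a to d. In UVB libraries a to c it measured 1811, 1667 and 1769 CPM, all inside the control range, whose low end is control b. On the log2 scale UVB minus control was 0.16 (SE 0.11; adjusted p = 0.380 in edgeR), a fold of 1.11 with a 95% interval of 0.939 to 1.32. That interval is narrower than those of the Fads genes and of Degs2. Its counts were not whole in 6 of 7 libraries.

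Scd4, which lies between Scd2 and Scd, fell after UVB. It measured 927, 729, 957 and 928 CPM in controls a to d and 506, 339 and 294 CPM in UVB libraries a to c. Every UVB library was below every control, with UVB minus control at -1.22 on the log2 scale (SE 0.19; adjusted p = 0.00776 in edgeR). Its share of the summed TPM of Scd, Scd2 and Scd4 averaged 5.26% (SD 0.532, n = 4) without irradiation and 2.42% (SD 0.858, n = 3) with it. The summed CPM of the 3 genes, mostly Scd, ranged from 75360 to 93596 in controls and from 73582 to 91742 after UVB, and the groups overlapped. Counts of Scd4 were not whole in any library. Of the 8 meibocyte markers 3 also fell and 5 did not pass, as given above, and their part in the fall of Scd4 was not tested.

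Among the Fads genes, Fads2 stood apart through 1 library. It measured 9.99, 7.65, 8.45 and 8.50 CPM in controls a to d and 7.96, 11.2 and 18.5 CPM in UVB libraries a to c. UVB c was far above the rest, UVB b was above every control, and UVB a lay within the control range. On the log2 scale UVB minus control was 0.54 (SE 0.25; adjusted p = 0.191 in edgeR), a fold of 1.46 with a 95% interval of 0.978 to 2.18. Without UVB c it was 0.15 (adjusted p = 0.617), and without UVB a it was 0.78 and passed the threshold (adjusted p = 0.0457). UVB c also had the highest summed level of cornifying epithelium markers, 6195 CPM, where the controls ran from 4129 to 5179 CPM. Krt1 and Krt10 made up most of that sum. Without Krt1, a sum added after seeing the data, the ranges were 1868 to 2751.5 CPM after UVB and 2307 to 2861 CPM in controls. UVB c was then no longer above every control. The part of the cornifying epithelium markers in the level of Fads2 was not tested.

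Fads1, the delta-5 desaturase that acts after Fads2, measured 19.9, 11.6, 18.7 and 13.2 CPM in controls a to d and 16.6, 11.5 and 14.7 CPM in UVB libraries a to c. Controls a and c were high and controls b and d low, and UVB a and c lay within that range, with UVB b just below it. On the log2 scale UVB minus control was -0.16 (SE 0.21; adjusted p = 0.663 in edgeR), a fold of 0.897 with a 95% interval of 0.645 to 1.25. Fads3, reported to act on sphingoid bases, measured 8.82, 7.75, 9.31 and 9.53 CPM in controls a to d and 8.15, 6.93 and 12.3 CPM in UVB libraries a to c. Its highest and its lowest values were both UVB libraries, c and b. On the log2 scale UVB minus control was 0.044 (SE 0.19; adjusted p = 0.906 in edgeR), a fold of 1.03 with a 95% interval of 0.768 to 1.39, and its sign changed to -0.23 without UVB c, to -0.015 without control b and to -0.046 on the log2(TPM + 1) scale. The 3 Fads genes had 164 to 542 counts per library. At the mean count of each group, counting error alone gives a coefficient of variation of 5.12% to 6.98%. The observed coefficient of variation was 25.8% in controls and 18.1% after UVB for Fads1, 11.3% and 43.0% for Fads2, and 8.97% and 30.8% for Fads3.

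Degs1, the main dihydroceramide desaturase, measured 287, 297, 311 and 356 CPM in controls a to d and 268, 229 and 310 CPM in UVB libraries a to c. UVB a and UVB b lay below every control and UVB c within their range. On the log2 scale UVB minus control was -0.22 (SE 0.11; adjusted p = 0.223 in edgeR), a fold of 0.860 with a 95% interval of 0.724 to 1.02. It ran from -0.33 without UVB c to -0.11 without UVB b, with no call in any of the 7 fits that left out 1 library.

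Degs2, the bifunctional desaturase and hydroxylase, showed the largest difference of the 7. It measured 49.7, 30.5, 26.0 and 25.8 CPM in controls a to d and 47.6, 47.9 and 67.2 CPM in UVB libraries a to c. Every UVB library was above controls b, c and d, and control a alone reached the UVB range. On the log2 scale UVB minus control was 0.72 (SE 0.25; adjusted p = 0.106 in edgeR), a fold of 1.65 with a 95% interval, not adjusted for the number of genes, of 1.096 to 2.48. The call depended on the tool and on control a: the adjusted p was 0.0121 in DESeq2, 0.0460 in limma-voom and 0.0182 with quality weights, and without control a the log2 fold change was 0.99 with an edgeR adjusted p of 0.00878. Control a also had the highest summed level of meibocyte markers (24694 CPM against 19973 to 22098 CPM in the other controls). In the UVB libraries that sum was lower than in every control (16830 to 18794 CPM). The part of the meibocyte markers in the level of Degs2 was not tested.

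**Figure D3:**
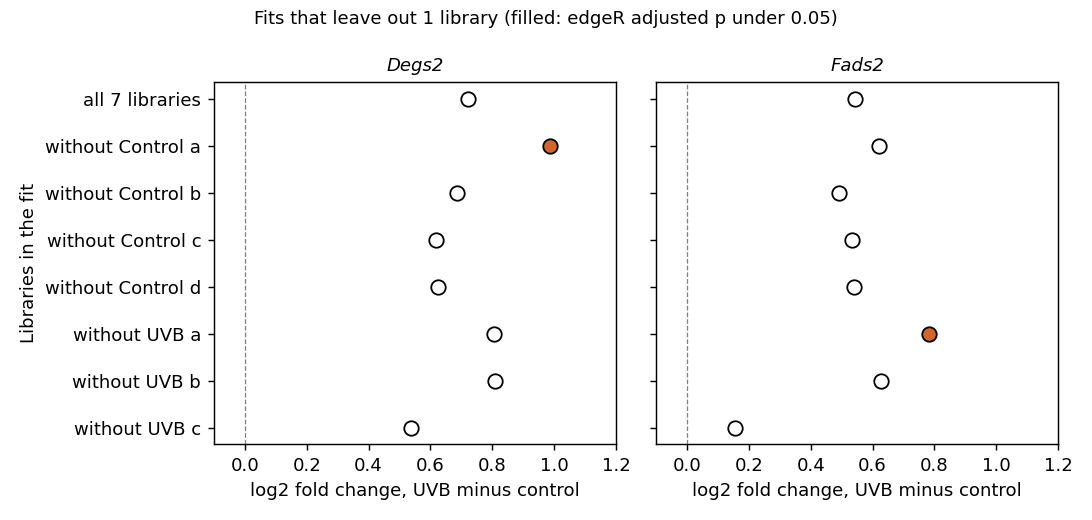
Log2 fold change of Degs2 and Fads2 (x axis) with all 7 libraries and with each library left out in turn (rows), filled where the edgeR adjusted p was under 0.05. Degs2 is filled only without control a (0.99), and Fads2 only without UVB a (0.78), while Fads2 drops to 0.15 without UVB c.

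Ratios within a library do not depend on scaling and asked whether related enzymes moved apart. The 3 planned ratios of TPM were compared by an exact two-sided permutation test on the mean log2 ratio, over the 35 ways to assign 7 libraries to groups of 4 and 3, where the smallest possible p is 0.0286. The ratio of Degs2 to Degs1 was 0.330, 0.196, 0.159 and 0.138 in controls a to d and 0.339, 0.398 and 0.415 in UVB libraries a to c. Every UVB library was above every control, narrowly so for UVB a against control a. The log2 ratio differed by 0.98, a 1.97-fold difference (exact permutation p = 0.0571, 0.171 adjusted over the 3 ratios), so it did not pass.

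The ratio of Scd2 to Scd was 0.0191, 0.0168, 0.0196 and 0.0193 in controls a to d and 0.0242, 0.0177 and 0.0234 in UVB libraries a to c. UVB b lay among the controls and the other two above them, a log2 difference of 0.21 (exact permutation p = 0.200, adjusted p = 0.200). The ratio of Fads1 to Fads2 was 0.939, 0.717, 1.04 and 0.743 in controls a to d and 0.974, 0.486 and 0.371 in UVB libraries a to c. UVB b and UVB c lay below every control and UVB a within their range, a log2 difference of -0.60 (exact permutation p = 0.171, adjusted p = 0.200). The ratios of Scd4 were added after its values were seen. Scd4 to Scd averaged 0.0566 (SD 0.00609, n = 4) without irradiation and 0.0254 (SD 0.00931, n = 3) with it. Scd4 to Scd2 averaged 3.03 (SD 0.217, n = 4) and 1.16 (SD 0.307, n = 3). These ratios restate the fall of Scd4 beside Scd and Scd2, so they are a description with no test.

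**Figure D4:**
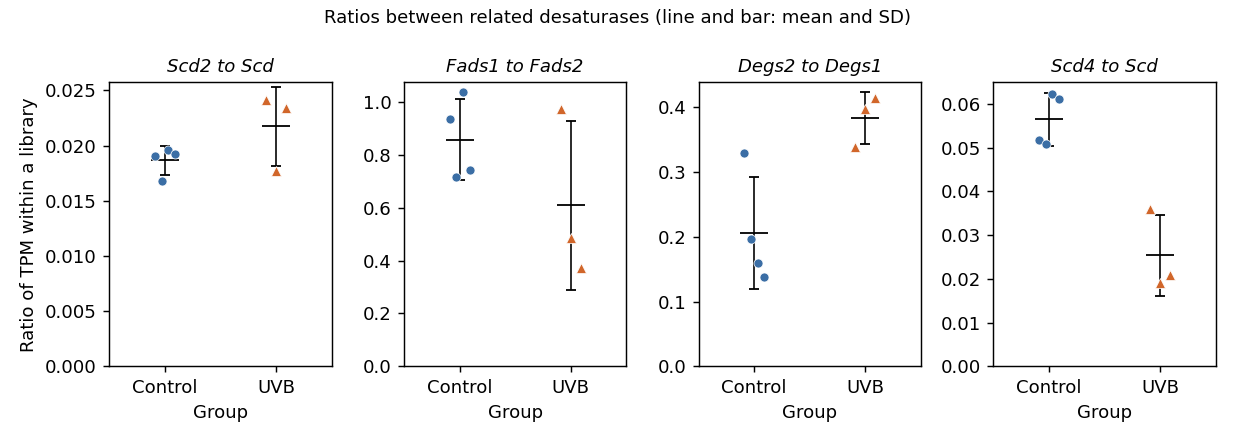
TPM ratios within each library (y axes from 0) for 4 control libraries (circles) and 3 UVB libraries (triangles), with mean and SD. Scd4 to Scd separates the groups widely, Degs2 to Degs1 separates them narrowly, and the other 2 ratios overlap.

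The 6 lists of genes around the desaturases held 96 symbols, of which 86 were tested. Of these, 7 were higher and 8 lower after UVB, 17.4% in all against 13.0% of all tested genes, with a median log2 fold change of -0.0056. Without control b, c or d, 3 list genes were higher each time and 8, 5 and 4 lower, while the genes called higher over the whole table went from 863 to 561, 421 and 507. Levels in this and the next paragraphs are means ± SD over 4 control and 3 UVB libraries.

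Electron supply was tested for 6 of 7 genes, with 1 higher and 1 lower and a median of -0.12. The gene not analysed here was Cyb5a, a cytochrome b5. Cyb5r3, the main cytochrome b5 reductase, measured 561 ± 92.5 CPM in controls and 789 ± 104.3 CPM after UVB (log2 fold change 0.49, edgeR adjusted p = 0.0452). Its groups overlapped, since UVB c (668 CPM) was below control a (677 CPM), and the call was lost in 5 of 7 fits that left out 1 library, up to an adjusted p of 0.134, and in the 3 fits on TPM (0.0534 to 0.0820). Cyb5r2, a scarcer reductase, fell from 6.12 ± 0.787 CPM to 2.28 ± 1.08 CPM (log2 fold change -1.43, adjusted p = 0.0201). It lost its call without control c (0.0513) and without control d (0.0528).

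Other desaturase-like genes were tested for 4 of 7, with 1 lower (Scd4) and 1 higher and a median of 0.17. Fa2h, which hydroxylates fatty acids for ceramides, rose from 23.3 ± 3.97 CPM to 39.3 ± 10.5 CPM (log2 fold change 0.75, edgeR adjusted p = 0.0399). That call was lost in 6 of 7 fits that left out 1 library, at an adjusted p of up to 0.0915; it held without UVB b. With every library kept, it was also lost by library size alone (0.0518), without the low-count filter (0.0517) and in the 3 fits on TPM (0.0503 to 0.0771). Msmo1, a sterol oxidase and the most abundant gene of this list, measured 1397 ± 266 CPM and 1475 ± 289 CPM. Fads6, a desaturase-like gene of unknown substrate, measured 334 ± 60.4 CPM and 399 ± 55.0 CPM, with a log2 fold change of 0.26 (adjusted p = 0.304). Both lay far above the 3 Fads members in CPM.

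Acyl-CoA supply and elongation, which feed the desaturases, had 3 of 21 tested genes higher and 1 lower, with a median of 0.057. The elongase gene Elovl6 of this list was not analysed here. Elovl5, which elongates the products of Fads2, rose from 365 ± 54.3 CPM to 601 ± 86.1 CPM (log2 fold change 0.72, edgeR adjusted p = 0.0105). Acsl5, which activates free fatty acids, rose from 713 ± 34.8 CPM to 951 ± 38.3 CPM (log2 fold change 0.41, adjusted p = 0.00786). Hacd3, a dehydratase of elongation, fell from 65.0 ± 6.01 CPM to 47.7 ± 1.97 CPM (log2 fold change -0.45, adjusted p = 0.0101). These 3 kept their calls in all 20 alternatives. Acly, named after its value was seen, was the other gene higher (0.38, adjusted p = 0.0258). Elovl1, the most abundant of the list, measured 4812 ± 578 CPM and 6035 ± 585 CPM, and did not pass (0.33, adjusted p = 0.0939), though DESeq2 called it (0.0204), as did limma-voom with quality weights (0.0498) and edgeR without control a (0.0279).

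Among transcriptional regulators of desaturases, 1 of 17 tested genes was higher, none lower, and the median was 0.018. Srebf1, the sterol regulatory factor that drives Scd in many tissues, measured 357 ± 28.1 CPM in controls and 365.5 ± 22.0 CPM after UVB, with a log2 fold change of 0.033. Ppard, a nuclear receptor for fatty acids, rose from 98.9 ± 7.98 CPM to 121.7 ± 9.02 CPM (log2 fold change 0.30, edgeR adjusted p = 0.0355), and lost its call in 6 of 7 fits that left out 1 library, up to 0.107. Mid1ip1, which promotes acetyl-CoA carboxylase activity and was the most abundant of the list, measured 786 ± 94.5 CPM and 699 ± 61.0 CPM.

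Sphingolipid genes around the dihydroceramide step had 1 of 27 tested genes higher, Fa2h again, and 3 lower, with a median of -0.072. Sptssb, a small subunit of serine palmitoyltransferase, fell from 7.12 ± 1.02 CPM to 2.64 ± 1.31 CPM (log2 fold change -1.43, edgeR adjusted p = 0.0203). Sgpl1, which degrades sphingosine phosphate, fell from 236 ± 25.9 CPM to 168.5 ± 15.6 CPM (log2 fold change -0.48, adjusted p = 0.0155). Cers6, a ceramide synthase, fell from 16.4 ± 0.903 CPM to 12.7 ± 0.675 CPM (log2 fold change -0.37, adjusted p = 0.0287). Cers6 lost its call in 5 of 7 fits that left out 1 library, Sptssb in 2 and Sgpl1 in 1. Cers4, the most abundant of the list, measured 767.5, 533, 528 and 546 CPM in controls a to d and 752, 735 and 1052 CPM in UVB libraries a to c (adjusted p = 0.0867). DESeq2 called Cers4 (0.0143), as did limma-voom with quality weights (0.0320) and edgeR without control a (0.0195).

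Users of desaturase products had 1 of 12 tested genes higher and 2 lower, with a median of -0.023. Dgat1, a triglyceride synthase, rose from 17.7 ± 0.781 CPM to 26.9 ± 1.40 CPM (log2 fold change 0.60, edgeR adjusted p = 0.00333). The more abundant triglyceride synthase Dgat2 did not pass. It measured 402.8 ± 60.4 CPM in controls and 361.6 ± 54.5 CPM after UVB (log2 fold change -0.16, edgeR adjusted p = 0.464). The wax ester synthases fell: Awat2 by 0.66 on the log2 scale (adjusted p = 0.00453) and Awat1 by 0.33 (adjusted p = 0.0404). Awat2 lost its call on the log2(TPM + 1) scale without a filter (adjusted p = 0.0762) and in no other alternative. Awat1 lost its call in 6 of 7 fits that left out 1 library, up to 0.115, and on that same scale (0.0628), as did Ppard (0.0565) and Cers6 (0.0652).

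**Figure D5:**
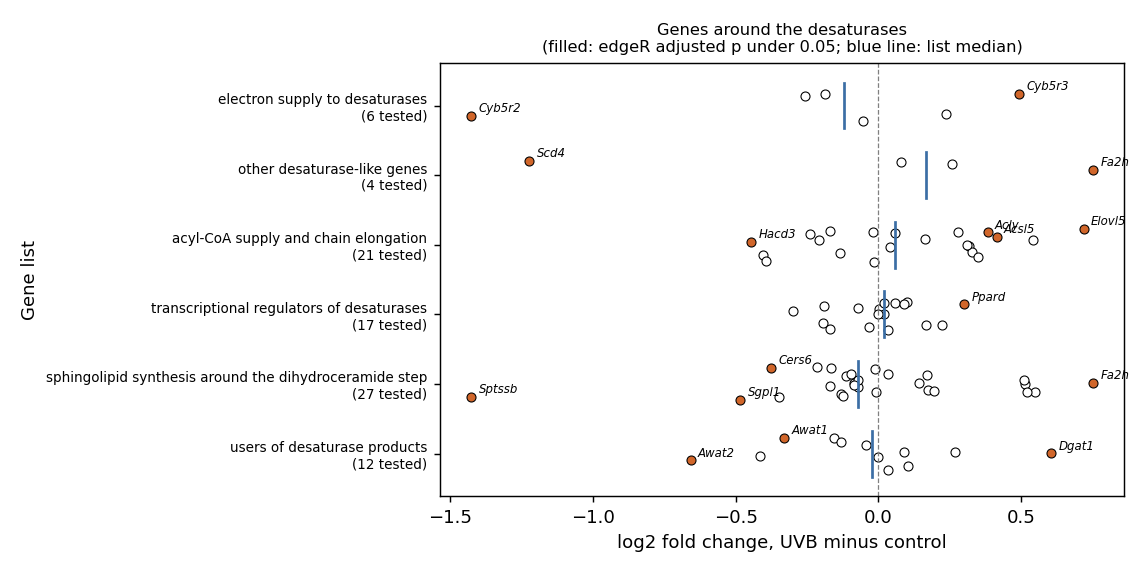
Log2 fold change (x axis) of each tested gene in the 6 lists (rows), filled and named where the edgeR adjusted p was under 0.05, with the list median as a blue line. All 6 medians lie between -0.12 and 0.17, and the called genes fall on both sides of 0.

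Genes with the pattern most like each member were found by the SD, over the 7 libraries, of the log2 ratio between gene and member in CPM, among 11365 named genes with a mean count of at least 50. With so many genes and 7 libraries, close matches are a description only. For Scd the closest were Lin54 (SD 0.039), Tmem110 (0.041) and Optn (0.044). For Scd2 they were Mrm2 (0.041), Golga7b (0.057) and Rangap1 (0.057), and for Degs1 Epha4 (0.050), Ift81 (0.054) and Fbxl7 (0.056). Matches were looser for the scarcer genes: Plk3 (0.13), Nfkbia (0.15) and Pax1 (0.16) for Fads1, Ptk6 (0.094), Cers3 (0.11) and Enpp4 (0.15) for Fads2, and Mtcl1 (0.10), Wnt5a (0.11) and Ldlrad4 (0.12) for Fads3. The nearest to Degs2 were Aox4 (0.17), Pglyrp2 (0.18) and Cers4 (0.20). Of these 21 genes, Pglyrp2 was the one past the test between groups (log2 fold change 0.80, edgeR adjusted p = 0.0214).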

How the data were processed

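Per the submitters' processing notes, reads were handled with FastQC, Trimmomatic, DRAGEN and Picard on the rat build rn7. Versions, annotation and strand handling are not given in the sources used here. The authors deposited expected counts (estimated counts per gene, not normalised, 12.5% of values not whole) and TPM (abundance per library total, corrected for length by the authors), whose listed genes sum to 82.0% to 84.1% of the scale's total. Gene names hold unquoted commas, and each row was therefore parsed from its last 7 cells, and 5 incomplete rows per table were left out. Columns name the group but no replicate, so libraries are lettered within a group and are not paired.

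Rounded counts entered the quasi-likelihood test of edgeR 4.0.16 under R 4.3.3, with robust estimation, TMM factors and filterByExpr, over all 13709 genes passing the filter; the design had assumed whole counts. Tests are two-sided, and p-values were adjusted by Benjamini-Hochberg, with calls at 0.05. The SE of a log2 fold change was derived from its F statistic, and 95% intervals use the fit's degrees of freedom. The script was tested on simulated data: of 200 genes changed 2-fold among 13709, 82.5% were recovered and 7.82% of calls were false. Alternatives were DESeq2 1.42.0, limma 3.58.1 (voom with and without quality weights, and log2 TPM with a pseudocount of 1 or 0.1), 4 other scalings, 2 other filters, non-robust estimation and each library left out. The members and gene lists were chosen with earlier results of these data known. Named genes are the members, the 3 smallest p-values past the threshold and the highest mean TPM in each list, and the 3 closest patterns per member. Acly, Dgat2, Fads6, Srebf1 and the single marker genes fall outside that rule and were named after their values were seen. Of 146 listed symbols, 15 were not analysed here and 1 was matched through another symbol. Upstream sequences and gene order come from RefSeq tables of GRCr8, used with no other coordinates.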

Additional observations from a re-analysis of the deposited data

Results flagged for a closer look

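Among 30 values compared within the 4 controls, 2 showed a single library standing apart, where 1.5 are expected by chance (1 in 20). For Scd4, control b was low at 729 CPM while the remaining controls lay between 927 and 957 CPM, and the gap took 0.871 of the whole range. Leaving control b out gave Scd4 a log2 fold change of -1.31 (adjusted p = 0.0119, edgeR). For Cers4, control a was high at 767.5 CPM while the rest lay between 528 and 546 CPM, and the gap took 0.924 of the range. Leaving control a out moved Cers4 past the threshold, at a log2 fold change of 0.66 (adjusted p = 0.0195, edgeR). Degs2 was also highest in control a, with a gap of 0.805 of the range, short of the limit for 4 samples. The cause of these gaps was not tested.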

How the results depend on the processing

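No paired analysis was possible because the column headers name a group and no replicate. Scd, Scd2, Fads1, Fads2 and Degs1 kept their direction and stayed uncalled in all 13 alternatives that kept every library. Fads3 changed sign on the TPM scale (-0.046 with a pseudocount of 1, filtered or not, and -0.060 with 0.1). Degs2 was called by DESeq2 (0.73), limma-voom (0.77) and limma-voom with quality weights (0.91). Leaving out 1 replicate gave ranges of -0.15 to 0.031 for Scd, 0.15 to 0.78 for Fads2, -0.23 to 0.21 for Fads3 and 0.54 to 0.99 for Degs2. It gave 851 to 1898 genes in all (1787 with every library), 421 to 927 higher (863) and 430 to 971 lower (924), and 3 to 10 list genes higher and 4 to 8 lower. Log2(TPM + 1) without a filter gave 1137 genes, 521 of them lower. The 3 planned ratios kept their direction with counts in place of TPM and without each library; those smaller designs cannot reach an exact p under 0.05, so they have no test. Msmo1 ran from -0.090 without UVB b to 0.22. Scd4 passed in all 20 alternatives (-1.48 to -1.07). The cause of these changes was not tested. Counting error was largest for the scarce members. In controls it alone gives a coefficient of variation of 6.87% for Fads3, 6.98% for Fads2 and 5.12% for Fads1. The observed values were 8.97%, 11.3% and 25.8%. After UVB it gives 6.69%, 5.65% and 5.40% for the same genes, where 30.8%, 43.0% and 18.1% were observed. The effect of depth was not tested.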
